A study of Mus musculus with 6 samples.

Results

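The 10 genes described here encode subunits of Polycomb repressive complex 2 (PRC2). They were taken as a fixed list (Jarid2, Suz12, Ezh2, Ezh1, Eed, Aebp2, Mtf2, Phf19, Rbbp4 and Rbbp7), and a target peak was assigned to a gene when its midpoint lay within the RefSeq span of that gene on GRCm38, the assembly also called mm10. This gave 23 of the 3292 listed peaks. AGO2, which uses bound microRNAs (miRNAs) to find target RNAs, was pulled down from mouse embryonic stem cells that carry Spy3-Ago2, the genotype of all libraries, and that were kept on gelatin in medium with serum and the cytokine LIF. The pull-down gave 2 target libraries and 2 miRNA libraries, and whole lysate gave 2 input libraries. A single peak list stands for the series, so a peak has no value per replicate and no spread between replicates can be given.

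PRC2 methylates histone H3 on a lysine of its tail, a mark that keeps developmental genes silent. In embryonic stem cells the complex holds genes of later lineages in a repressed state, and cells without it proliferate but differentiate poorly. Its core consists of a methyltransferase (Ezh2 or Ezh1), the scaffold Suz12, the mark-binding subunit Eed and a histone-binding subunit (Rbbp4 or Rbbp7). Accessory subunits define its subtypes. Jarid2 and Aebp2 form one of them, and the Polycomb-like proteins Mtf2 and Phf19 belong to the other, which binds chromatin rich in CpG.

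Several miRNAs are known for repressing PRC2 genes in other settings, and their seeds, bases 2 to 8, are the part that pairs with a target. The mature sequences below are those of RefSeq on GRCm38.p6, shown because these miRNAs were held by AGO2 in the same cells, with the seed in capitals. miR-101 and miR-26 are known to repress EZH2, miR-101 in human cells and miR-26 in human and mouse cells. miR-138 is likewise known for EZH2 in human cells, miR-200b for SUZ12 in human cells, and miR-155 for Jarid2 in mouse T cells.
miR-101a-3p: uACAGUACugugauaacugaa
miR-101b-3p: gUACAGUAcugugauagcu
miR-26a-5p: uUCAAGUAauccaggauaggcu
miR-26b-5p: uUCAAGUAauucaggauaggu
miR-138-5p: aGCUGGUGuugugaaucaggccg
miR-200b-3p: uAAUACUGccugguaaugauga
miR-200c-3p: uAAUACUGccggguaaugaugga
miR-155-5p: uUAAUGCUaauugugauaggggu

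miR-26a-5p and miR-26b-5p share a seed, as do miR-200b-3p and miR-200c-3p. The listed miR-101b-3p carries 1 more base at its 5′ end than miR-101a-3p, and the next 15 bases are the same in both, so that their seeds are shifted by 1 base. miR-26a-5p led these miRNAs with 0.871% of the counts in miRNA replicate 1 and 0.826% in replicate 2, and with miR-26b-5p its seed held 0.908% ± 0.033 (SD, n = 2 here and for the following shares). miR-101a-3p had 0.235% ± 0.043 and miR-101b-3p 0.0177% ± 0.0026. miR-200b-3p had 0.237% ± 0.014, miR-200c-3p 0.0992% ± 0.0063 and miR-138-5p 0.0240% ± 0.0035. These places span the ranks from 20 for miR-26a-5p to 191 for miR-101b-3p, and the shares of miR-101a-3p and miR-200b-3p differed by less than the SD of either. miR-155-5p made up 0.00698% ± 0.0021, from 1065 and 1256 counts. let-7a-5p and let-7c-5p, whose family is known to repress EZH2 in human cells, had 0.00239% ± 0.00026 and 0.00375% ± 0.00097. miR-214-3p, a repressor of Ezh2 in mouse muscle, was nearly absent with 4 and 3 counts. As a check of the labelled cell type, the names miR-290 to miR-295, typical of mouse embryonic stem cells, summed to 39.1% ± 0.47 and let-7, typical of differentiated cells, to 0.0177% ± 0.0024. The libraries held 12562727 and 22908172 counts, and the labels do not say whether they came from separate cultures, so that the SD may be technical. The bases under the peaks were not analysed here, and no peak is tied to any of these miRNAs.

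Peaks lay in 5 of the 10 genes, Jarid2, Mtf2, Suz12, Aebp2 and Rbbp4. Over all 21900 protein-coding genes, 8.33% had at least 1 peak. The PRC2 genes are longer than most, and of the 10414 protein-coding genes at least as long as Rbbp7, the shortest of the 10, 12.3% had a peak. The accessory genes carried most of them, with 19 peaks in 3 of 4 genes, against 4 peaks in 2 of 6 core genes. Jarid2 alone held 13 peaks (56.5%). No test was made of these counts, since the genes are not replicates and were chosen with earlier results known, and their RNA levels were not analysed here. More RNA, more AGO2 on each RNA and a longer RNA cannot be told apart by a peak count.

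**Figure D1:**
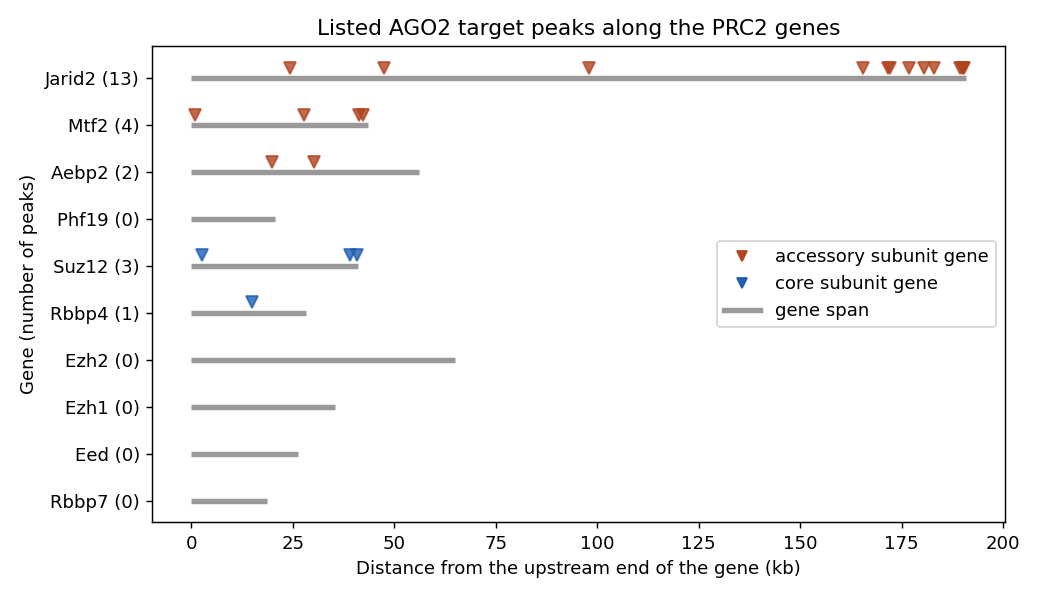
Listed peaks (triangles) along the span of each PRC2 gene (grey bars), measured in kb from the upstream end in the direction of transcription, with the number of peaks in brackets. Jarid2 has 13 peaks, 10 of them in the last 25% of its span, and Phf19, Ezh2, Ezh1, Eed and Rbbp7 have none.

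All 23 peaks were on the coding strand of their gene, with the gene strand taken from the RefSeq promoter table. In the whole list this held for 2440 of 2464 peaks (99.0%) that lay in exactly 1 protein-coding gene of known strand. Each of the 23 midpoints lay in the span of that gene only. No peak is therefore shared with an overlapping or antisense gene.

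Jarid2, which encodes a DNA-binding accessory subunit that helps recruit PRC2 in stem cells, lies on the plus strand of chromosome 13 (44730774 to 44921643), a span of 190870 nt. Of all protein-coding genes, 4 had more peaks than Jarid2, and Huwe1, a ubiquitin ligase gene, had the same number. Among the 1052 protein-coding genes at least as long as Jarid2, 110 (10.5%) had a peak, and Jarid2 was the 1 gene among them with at least 13. Both limits are the values of Jarid2 itself, which therefore meets them by definition. Per 10 kb of span Jarid2 was the lowest of the 6 genes with at least 13 peaks, and the others have shorter spans. Jarid2 had 0.681 peaks per 10 kb, against 0.966 in Huwe1, 1.69 in Tet1, 3.39 in Fn1, 4.38 in Srrm2 and 9.46 in Sall1, the other genes with at least 13 peaks. Fn1, the fibronectin gene, had the most peaks in the list with 23. The median over the 1824 protein-coding genes with a peak was 0.397 per 10 kb. Their median span was 35164 nt, so this value is not matched to Jarid2 for length.

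**Figure D2:**
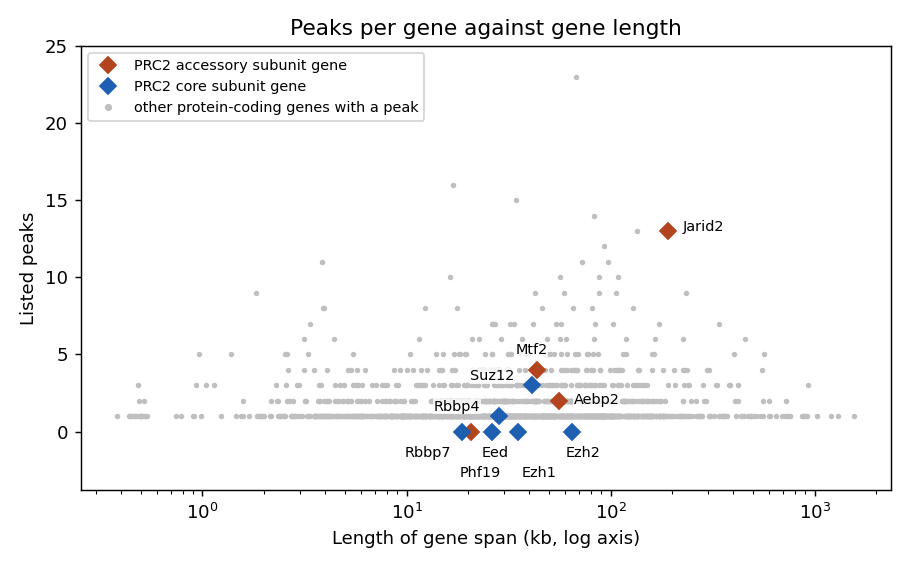
Number of listed peaks per gene against the length of the gene span in kb (log axis), for the PRC2 genes (diamonds, including those with 0 peaks) and for the other protein-coding genes with a peak (grey points). Jarid2 stands high among long genes with 13 peaks in 190870 nt, while the 5 genes without a peak lie between 18719 and 64997 nt.

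The 13 peaks of Jarid2 fell into a sparse upstream part and a dense downstream part. The first 3 stood alone, at 44755024 to 44755154, 44778099 to 44778193 and 44828842 to 44828880, which is 12.7%, 24.8% and 51.4% of the way along the span. They were 131, 95 and 39 nt wide, and the last of them was followed by 67374 nt without a listed peak, the widest interval of any of these genes. The next 6 lay between 44896255 and 44913834, at 86.7% to 95.9% of the span, with widths of 44, 116, 57, 50, 115 and 64 nt. In that stretch neighbouring midpoints were 6062, 546.5, 4677.5, 3661.5 and 2578.5 nt apart.

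The last 4 peaks of Jarid2 formed a cluster of 1133 nt near the downstream end of the gene, the part that in most genes encodes the untranslated region where miRNAs bind. They spanned 44920028 to 44920089, 44920620 to 44920749, 44920783 to 44920864 and 44921051 to 44921160, and their midpoints lay 1584.5, 958.5, 819.5 and 537.5 nt from the end. Together they covered 384 nt. The middle pair of the cluster was separated by 33 nt only, the closest pair in the 10 genes, and a rule that joins peaks closer than 100 nt would count it as 1. Exon and untranslated region boundaries were not used here, so whether any of these peaks lies in an exon was not tested.

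Jarid2 was distributed differently from Huwe1, the gene with the same count. The median position of its peaks was 92.6% of the span with 4 peaks within 2000 nt of the downstream end, against 63.0% and 0 in Huwe1. The median distance between neighbouring midpoints was 4169.5 nt in Jarid2 and 4846.75 nt in Huwe1, and the median width 82 and 64 nt. These are values of 2 genes from 1 list, and the difference was not tested.

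Mtf2, a Polycomb-like subunit that binds CpG-rich DNA, lies on chromosome 5 (108065660 to 108109219, plus strand) and had 4 peaks. The first, at 108066648 to 108066686, was 39 nt wide and its midpoint lay 1007 nt from the upstream end of the span and 993 nt from the nearest annotated start site, the closest to a start site of all 23. The second, of 61 nt, stood at 63.6% of the span (108093343 to 108093403). The remaining pair, of 111 and 65 nt, lay near the downstream end at 108106999 to 108107109 and 108108020 to 108108084, with midpoints 2165 and 1167 nt from it and 998 nt from each other. A further plus-strand peak lay 4698.5 nt upstream of Mtf2, outside any annotated gene.

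Suz12, the scaffold without which the complex is unstable, lies on chromosome 11 (79993106 to 80034123, plus strand) and had 3 peaks, the most of any core gene. The outer ones stood at opposite ends of the gene. The first, at 79995622 to 79995664, was 43 nt wide and lay 2537 nt from the annotated start. The other 2 followed after 36516 nt without a listed peak, at 80032181 to 80032236 (56 nt) and 80033891 to 80034021 (131 nt), with midpoints 1914.5 and 167 nt from the downstream end. The last of them was the nearest to a downstream end among the 23.

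Aebp2, the zinc finger partner of Jarid2 in its subtype, lies on chromosome 6 (140622454 to 140678472, plus strand) and had 2 peaks, both in the middle of the span. They were wide, at 150 nt (140642171 to 140642320) and 129 nt (140652589 to 140652717), and the first was the widest of the 23. Their positions were 35.3% and 53.9%, 10407.5 nt apart, and the nearer one was 25819 nt from the downstream end. Rbbp4, a histone-binding subunit also found in the NuRD complex, lies on chromosome 4 (129307100 to 129335370, minus strand) and had 1 peak of 78 nt at 129320470 to 129320547, at 52.6% of the span. In neither gene did a peak come closer than 5000 nt to the downstream end.

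Over all 23 peaks, the median position was 90.2% of the span, and 12 (52.2%) lay in the last 10% and 2 (8.70%) in the first 10%. Over the 2464 peaks of the whole list with a known gene strand the median was 83.6%, and 41.8% lay in the last 10% and 3.29% in the first 10%. The 2 early peaks were those of Suz12 and Mtf2 described above. The value for the PRC2 genes rested on Jarid2, since the 10 peaks of the other 4 genes had a median of 58.8%. Within 2000 nt of the downstream end lay 7 of the 23 peaks (30.4%), against 36.1% of the 2464 peaks. The difference was not tested, since the peaks of 1 gene are not independent. A limit of 2000 nt also covers more of a short span than of a long one. The 5 PRC2 genes with a peak span at least 28271 nt, with a median of 43560 nt. The median over the 1824 protein-coding genes with a peak was 35164 nt. With 1000 nt as the limit the number was 4. Jarid2, Mtf2 and Suz12 reached within 2000 nt, which is 3 of the 5 genes with peaks. Of the 1419 genes that hold the 2464 peaks, 664 (46.8%) did so. Jarid2, Mtf2 and Suz12 also had the most peaks of the 10 genes, with 13, 4 and 3. Of all 1824 protein-coding genes with a peak, 1189 had exactly 1. A gene with more peaks has more chances to hold a peak near its end, so these shares are matched neither for peak number nor for span length. Within 1000 nt Mtf2 had none, its nearest midpoint being 1167 nt away.

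**Figure D3:**
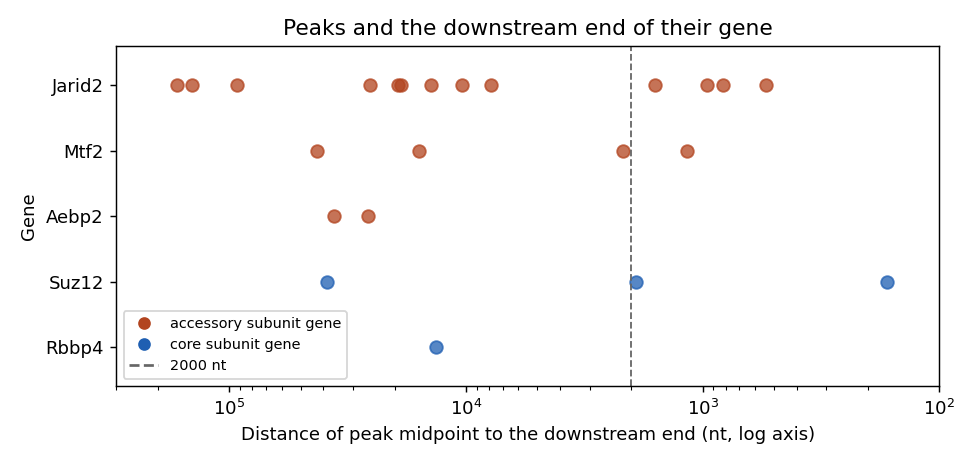
Distance of each peak midpoint to the downstream end of its gene in nt (log axis, running toward the end on the right), 1 row per gene with peaks, with a dashed line at 2000 nt. Jarid2 has 4 peaks to the right of the line, Suz12 has 2 and Mtf2 has 1, while those of Aebp2 and Rbbp4 stay beyond 5000 nt.

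The 23 peaks had a median width of 78 nt and ranged from 39 to 150 nt. The whole list had a median of 58 nt with quartiles of 45 and 84 nt. Of the 23, 16 were wider than the median of the list, and 9 (39.1%) were at least 100 nt wide, against 554 of 3292 (16.8%). The wide ones were spread over 4 genes, with 5 in Jarid2, 2 in Aebp2 and 1 each in Mtf2 and Suz12. Without Jarid2 the median was 71.5 nt over 10 peaks, of which 4 were at least 100 nt. Peaks of 1 gene share its RNA and are not independent, and the difference in width was not tested.

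**Figure D4:**
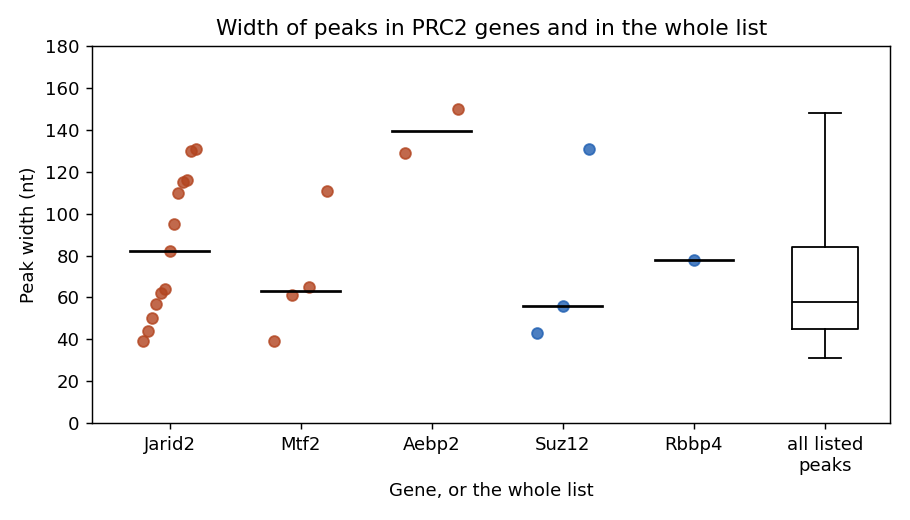
Width in nt of each peak (points) in the 5 PRC2 genes that have peaks, with a line at the median of each gene, beside a box plot of all 3292 listed peaks (median, quartiles, and whiskers at percentiles 5 and 95). Both peaks of Aebp2 lie above the upper quartile of 84 nt, and those of Jarid2 run from 39 to 131 nt.

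Neighbouring peaks of these genes were 139 to 67415.5 nt apart by midpoint, with a median of 5369.75 nt over 18 pairs. Without Jarid2 the median was 12044 nt over the remaining pairs. Over the listed peaks in exactly 1 protein-coding gene of known strand, the median was 1618.25 nt over 1044 pairs. Fn1, with 23 peaks, is not among these genes. Distances were measured along the genome, and the difference was not tested. The distance between 2 peaks of a gene cannot exceed its span. The 4 PRC2 genes with pairs span at least 41018 nt, against a median of 35164 nt over all protein-coding genes with a peak. The 18 and the 1044 pairs are therefore not matched for span length. Pairs within 1000 nt made up 5 of the 18, of which 4 were in Jarid2 and 1 in Mtf2, against 463 of the 1044 (44.3%).

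The peaks carry running numbers up to 30438, of which 10.8% are listed. The numbers increase without exception down the list, and within each chromosome and strand they follow the position, so that a gap in the numbers counts unlisted entries between neighbouring peaks. Between its first and last peak Jarid2 spanned 54 numbers, of which 13 (24.1%) were listed and 41 were not. The corresponding numbers were 24 for Mtf2 with 20 unlisted, 10 for Suz12 with 7 unlisted and 6 for Aebp2 with 4 unlisted. Over these 4 genes 23.4% of the spanned numbers were listed, against 32.0% over the 482 genes of the list with at least 2 peaks on their own strand. The first and last number of each such span are listed by definition, so the share depends on how many peaks a gene has. These shares are not matched for that, nor can they be set against the 10.8% of the whole list. The difference was not tested. The labels and the file do not say what an unlisted number stands for.

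Ezh2, Ezh1, Eed, Phf19 and Rbbp7 had no listed peak. They include both methyltransferases and the subunit that binds the mark. Their spans measured 64997 nt for Ezh2 on chromosome 6 (47530274 to 47595270), 35349 nt for Ezh1 on chromosome 11 (101191115 to 101226463), 26323 nt for Eed on chromosome 7 (89954654 to 89980976), 20602 nt for Phf19 on chromosome 2 (34893752 to 34914353) and 18719 nt for Rbbp7 on chromosome X (162760372 to 162779090). The median length was 26323 nt without a peak and 43560 nt with one, and the ranges overlapped.

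For Ezh2 the nearest listed peaks on its own strand lay in Pdia4, 201186.5 nt away, and, much farther off, in Mkrn1, and 37 unlisted numbers fell between them. For Ezh1, Eed, Phf19 and Rbbp7, between 16 and 21 unlisted numbers fell between the nearest listed peaks on the strand of the gene. Whether any of these unlisted entries lay in one of the 5 genes is not known from the list. With spans extended by 5000 nt at both ends, Ezh2 would gain 1 peak, which lies on the opposite strand in Cul1, and Mtf2 the upstream peak given above. Within pairs of related subunits, Rbbp4 had a peak and Rbbp7 had none, and Mtf2 had 4 and Phf19 had none. In each of these pairs the gene without a peak was the shorter. The related pair Ezh2 and Ezh1 had none, and Ezh2, at 64997 nt, was longer than every gene with a peak except Jarid2.

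Genes of complexes that act with PRC2 were counted in the same way. Of 22 genes of Polycomb repressive complex 1, some forms of which bind the mark and compact chromatin, 6 had peaks, 8 in all. These were Phc1, a polymerising subunit gene, with 3, and Rnf2 (the main ubiquitin ligase), Pcgf2, Pcgf3, Bcor and Scmh1 with 1 each. The peaks of Rnf2 and Bcor and 1 of Phc1 lay within 2000 nt of the downstream end. Of 11 genes of NuRD, a remodelling and deacetylase complex that shares Rbbp4 and Rbbp7, 2 had peaks, Chd4 with 3 and Gatad2b with 3. The demethylase gene Kdm6b, whose protein removes the PRC2 mark, had 1 and Kdm6a had 0. None of the other PRC2 partners Phf1, Epop, Lcor, Lcorl and Ezhip had a peak. Peaks were thus listed for 5 of the 10 PRC2 genes, 27.3% of the Polycomb repressive complex 1 genes and 18.2% of the NuRD genes, against 0 of the 5 other PRC2 partners and 8.33% of all protein-coding genes. These lists, too, differ in length from the rest, with a median span of 38656 nt for Polycomb repressive complex 1 and 34612 nt for NuRD, against 17146 nt for all protein-coding genes, and of the genes at least as long as Rbbp7 12.3% had a peak. The 5 other PRC2 partners had a median span of 4782 nt, shorter than that of all protein-coding genes. The differences between the lists were not tested.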

How the data were processed

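Per the labels' protocols, RNA held by Spy3-AGO2 was recovered with SpyCatcher3 on a resin and cut from a gel, and input RNA came from whole lysate. The authors deposited 1 peak list on mm10 (per the submitters' processing notes), in which the score is 0 for every peak, so that no stricter threshold could be applied. For each of the miRNA libraries they also deposited unnormalized counts by mature miRNA. A last row naming no miRNA held 0 counts and was left out. Without giving roles, the notes list STAR 2.5.2a, Bowtie2 2.4.2, cutadapt 2.10, UMI-tools, deepTools 3.1.3 and DESeq2 1.36.0. How peaks were called, at which threshold, and whether input was subtracted or UMIs collapsed is not given in the sources.

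Peaks were assigned by midpoint to the RefSeq gene spans of GRCm38.p6, counted from 1. Gene strands and start sites came from the RefSeq promoter table, and genes missing from it were left out of strand and position counts. Position runs from the upstream end (0%) to the downstream end. Shares of miRNAs are percentages of the library total. No contrast between groups was possible with 1 list that names no library and 1 group of count tables. The assignment step returned 500 of 500 simulated peaks to their gene. Their midpoints were drawn inside the span of that gene, so this checks the code only, not the strand or the listed peaks. The members and lists were chosen with earlier results of these data known. All 10 genes, each related chromatin gene with a peak, genes overlapping a peak and genes with as many peaks as Jarid2 were named by rule. Kdm6a, the other PRC2 partners, Fn1, Tet1, Srrm2, Sall1 and the genes of flanking peaks were named after their values were seen. Planned seed matches and exon positions were not run, since no genome or exon table was used here. Alternatives changed the assignment, the span, the strand, the width, merging, the distance limit and the denominator. Python 3.11.15, numpy 2.4.6, pandas 2.3.3, scipy 1.17.1 and matplotlib 3.10.9 were used.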

Additional observations from a re-analysis of the deposited data

How the results depend on the processing

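The count of 23 peaks was the same with any overlap, with the whole peak inside the span, with spans extended by 1000 nt, on the gene strand only and in no other gene's span. It was 25 with spans extended by 5000 nt, 22 with peaks closer than 100 nt merged and 19 with peaks of at least 50 nt. The number of genes with a peak was 5, or 6 with spans extended by 5000 nt. The number of peaks near the downstream end was 7 within 2000 nt, 4 within 1000 nt and 8 within 5000 nt. The summed share of the 11 listed miRNAs was 1.53% of the counts and 2.01% with miR-290a-5p, the most abundant miRNA, left out of the total. Seed matches were not run. No paired analysis was possible because the peak list names no library and the miRNA tables form 1 group. The list has no depth, height or replicate value, which limits every count here.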
